A study of Mus musculus with 23 samples.

Results

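Transport of short-chain fatty acids, peptides and citrate into colon cells was followed through 8 genes, *Slc5a8*, *Slc16a1*, *Slc16a3*, *Slc5a6*, *Slc13a2*, *Slc15a1*, *Ffar2* and *Ffar3*, of 55449 genes with values in the count table. They were chosen by name from carriers and receptors of these metabolites, and the choice was made with the difference between BF BSHhigh and BF BSHlow tumors already known, so that this difference is given below as a description without a test. RNA came from the colon of male Cdx2Apcf/w mice, in which CDX2-cre removes a floxed copy of the tumor suppressor *Apc* in the epithelium. All mice were 6 to 8 weeks old at the start, received a high-fat diet (HFD, 60% fat) and a cocktail of antibiotics, and were then gavaged with *B. fragilis* 638R. In the BF BSHlow groups the bacterium carried an empty vector, and in the BF BSHhigh groups it carried a *bsh* gene, which encodes bile salt hydrolase (BSH), the enzyme that removes taurine or glycine from conjugated bile acids. There were 4 libraries each of BF BSHlow and BF BSHhigh normal colon after 2 weeks, 4 each of non-tumor tissue after 12 weeks, 4 of BF BSHlow tumors and 3 of BF BSHhigh tumors after 12 weeks. The labels number the libraries and do not say which mouse each came from, so that the p-values measure the spread between libraries.

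Colonocytes take most of their energy from butyrate, a short-chain fatty acid made by gut bacteria. It is carried by *Slc5a8* (SMCT1, coupled to sodium), at the luminal face, and by *Slc16a1* (MCT1, coupled to protons), and is oxidised in mitochondria. *Slc16a3* (MCT4) is known for export of lactate from glycolytic cells, *Slc5a6* (SMVT) carries biotin and pantothenate, *Slc13a2* (NaDC1) carries citrate and succinate, and *Slc15a1* (PEPT1) carries di- and tripeptides. *Ffar2* (GPR43) and *Ffar3* (GPR41) are receptors at the cell surface for acetate, propionate and butyrate, found on enteroendocrine cells, and *Ffar2* also on neutrophils.

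The libraries held between 12401388 and 17903008 expected counts (median 15874872). The columns of the 3 BF BSHhigh tumors carry no replicate names and are called a, b and c. Levels are CPM, counts divided by library size, on a common TMM scale of all 23 libraries, and log2 fold changes come from edgeR with their standard errors (SE). A gene is called where the adjusted p of the quasi-likelihood test was under 0.05 and the log2 fold change was over 1 in either direction. The 7 epithelial marker genes had counts in every library, with *Epcam* between 826 and 2014 CPM. Their levels were not uniform. *Cdx2*, also of the 7, was between 307 and 418 CPM at 2 weeks and between 6.34 and 60.5 CPM in non-tumor tissue. In tumors *Cdx2* was between 0.256 and 1.95 CPM in BF BSHlow and between 2.43 and 27.6 CPM in BF BSHhigh. *Apc* was between 8.74 and 28.6 CPM in tumors and between 67.4 and 190 CPM in the other tissues, but a count over the whole gene does not read the floxed part. In bulk tissue, fewer cells of a type and less RNA per cell cannot be told apart. *Slc5a6* overlaps exons of *Atraid* and *Slc13a2* overlaps exons of the antisense gene *Slc13a2os*, each on the opposite strand. Whether the counting used the strand is not given in the sources used here. *Slc13a2os* was at or below 0.182 CPM in every library.

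The counts cover the annotated exons of each gene on GRCm38 (mm10, GENCODE M21), all 8 of them protein coding. The butyrate carriers are *Slc5a8* (ENSMUSG00000020062.7, chr10:88885992-88929515, plus strand) and *Slc16a1* (ENSMUSG00000032902.1, chr3:104638668-104658462, plus strand). The lactate and vitamin carriers are *Slc16a3* (ENSMUSG00000025161.16, chr11:120948480-120960868, plus strand) and *Slc5a6* (ENSMUSG00000006641.12, chr5:31036036-31048924, minus strand). The citrate and peptide carriers are *Slc13a2* (ENSMUSG00000001095.5, chr11:78397087-78422217, minus strand) and *Slc15a1* (ENSMUSG00000025557.10, chr14:121459621-121505252, minus strand). The receptors *Ffar2* (ENSMUSG00000051314.11, chr7:30818348-30823775, minus strand) and *Ffar3* (ENSMUSG00000019429.7, chr7:30854330-30856178, minus strand) lie close together on chromosome 7.

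Per length, the order of the genes turned over between tissues (CPM per kb of exon sequence, mean ± SD). At 2 weeks *Slc13a2* led in both groups, with 139 ± 6.73 (n = 4) in BF BSHlow and 196 ± 20.9 (n = 4) in BF BSHhigh. In non-tumor tissue *Slc16a1* and *Slc5a8* led, with 78.1 ± 9.64 and 63.5 ± 14.8 (n = 4) in BF BSHlow, and their ranges overlapped. In tumors *Slc16a3* was at the top, with 33.0 ± 15.2 (n = 4) in BF BSHlow and 26.2 ± 9.0 (n = 3) in BF BSHhigh, followed by *Slc16a1* with 8.18 ± 3.94 and 13.2 ± 3.31. *Ffar3* stood last or next to last in every group.

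**Figure D1:**
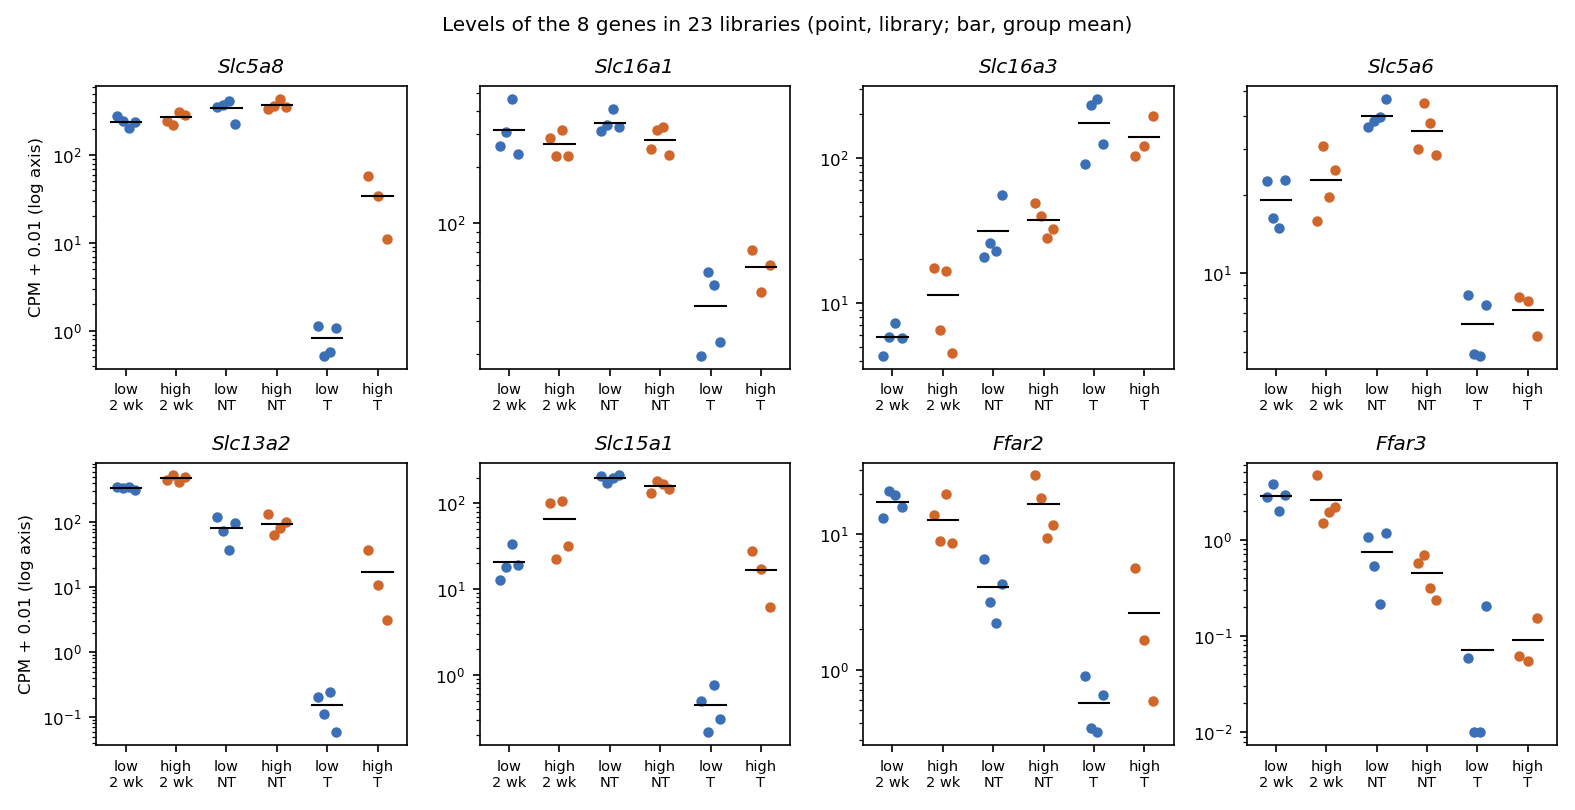
CPM of each of the 8 genes (log axis, 0.01 added so that libraries at 0 can be drawn) in 23 libraries by group: BF BSHlow (blue) and BF BSHhigh (orange) at 2 weeks, in non-tumor tissue (NT) and in tumors (T), with a point per library and a bar at the group mean. *Slc5a8*, *Slc13a2* and *Slc15a1* were under 1.2 CPM in all 4 BF BSHlow tumors and between 3.10 and 57.2 CPM in the 3 BF BSHhigh tumors.

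Tumors were compared with non-tumor tissue of the same strain to see which carriers differ in the tumor. In both strains 7 of the 8 genes were called lower and 1, *Slc16a3*, was called higher. The 7 include *Ffar3*, which had at most 4 counts in a tumor and passed the filter on low counts through non-tumor tissue, and whose call in BF BSHhigh was lost in 5 of 11 alternatives. Without it, 6 of 7 were called lower. Of 16454 genes tested, 36.2% were called in BF BSHlow (16.7% higher and 19.5% lower) and 29.4% in BF BSHhigh (14.6% higher and 14.8% lower). With library size alone as the scaling, the share of calls that were higher rose from 46.2% to 61.4% in BF BSHlow and from 49.6% to 66.2% in BF BSHhigh, and the median of all genes moved from 0.04 to 0.37 and 0.35 on the log2 scale. The direction of all 8 genes was the same under that scaling. These comparisons share the tumor libraries with the contrast known when the genes were chosen, and the 2 strains were not tested against each other.

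*Slc5a8*, the sodium-coupled carrier, had 349, 367, 410 and 226 CPM in the 4 BF BSHlow non-tumor libraries and 1.13, 0.513, 0.572 and 1.07 CPM in the 4 tumors, where its counts were 23, 10, 12 and 22. No library of the tumors came near those of non-tumor tissue. Its log2 fold change was -8.68 (SE 0.51, adjusted p = 1.89e-08). BF BSHhigh had 330, 364, 435 and 349 CPM in non-tumor tissue and 57.2, 34.4 and 11 CPM in the tumors a, b and c. The groups did not overlap there either, and the log2 fold change was -3.44 (SE 0.43, adjusted p = 1.55e-05). Without tumor a it was -4.03.

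*Slc16a1*, the proton-coupled carrier, fell less. It was at 346 ± 42.7 CPM (SD, n = 4) in BF BSHlow non-tumor tissue and at 19.6, 54.9, 47.1 and 23.3 CPM in the tumors. Its log2 fold change was -3.28 (SE 0.30, adjusted p = 4.01e-07). The level in BF BSHhigh was 281 ± 47.2 CPM (n = 4) in non-tumor tissue and 71.9, 42.8 and 60.2 CPM in tumors, a log2 fold change of -2.28 (SE 0.32, adjusted p = 3.96e-05). Each tumor library was below each non-tumor library in both strains.

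*Slc16a3*, the lactate exporter, went the other way. BF BSHlow non-tumor tissue had 20.7, 26.0, 22.9 and 55.5 CPM and the tumors 90.5, 232, 256 and 124 CPM. All tumors were above all non-tumor libraries, with a log2 fold change of 2.46 (SE 0.39, adjusted p = 6.99e-05). BF BSHhigh had 49.2, 40.1, 28.1 and 32.2 CPM in non-tumor tissue and 103, 121 and 194 CPM in tumors, again without overlap (log2 fold change 1.89, SE 0.40, adjusted p = 0.00108).

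*Slc13a2* and *Slc15a1*, the carriers of citrate and of peptides, were close to absent from BF BSHlow tumors. *Slc13a2* had 121, 73.2, 37.7 and 95.9 CPM in non-tumor tissue and 0.196, 0.103, 0.238 and 0.0488 CPM in tumors, which stand for 4, 2, 5 and 1 counts. The log2 fold change of -9.07 (SE 0.88, adjusted p = 7.14e-07) rests on 12 counts in the tumors. *Slc15a1* had 208, 171, 195 and 212 CPM in non-tumor tissue and 0.491, 0.205, 0.763 and 0.293 CPM in tumors, with 10, 4, 16 and 6 counts. Its log2 fold change was -8.79 (SE 0.48, adjusted p = 1.15e-08). Neither gene overlapped between the tissues.

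In BF BSHhigh the same carriers stayed measurable in tumors. *Slc13a2* had 133, 64.5, 82.3 and 99.6 CPM in non-tumor tissue and 37.0, 10.9 and 3.10 CPM in the tumors a, b and c. Its log2 fold change of -2.50 (SE 0.61, adjusted p = 0.00316) became -3.76 without tumor a. *Slc15a1* had 133, 181, 167 and 148 CPM in non-tumor tissue and 27.6, 17.0 and 6.15 CPM in tumors (log2 fold change -3.23, SE 0.38, adjusted p = 9.49e-06), and -3.77 without tumor a. For both genes each tumor was below each non-tumor library.

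*Slc5a6*, the vitamin carrier, was also lower in tumors of each strain. It was between 36.4 and 46.6 CPM in BF BSHlow non-tumor tissue and between 4.81 and 8.24 CPM in the tumors (log2 fold change -2.67, SE 0.21, adjusted p = 1.39e-07). Levels in BF BSHhigh were between 28.4 and 45.0 CPM and between 5.72 and 8.06 CPM (-2.30, SE 0.23, adjusted p = 3.02e-06). *Atraid*, which shares exon sequence with it, was between 39.3 and 56.9 CPM in non-tumor tissue and between 21.3 and 35.1 CPM in tumors.

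The receptors were expressed at a low level. *Ffar2* had 6.59, 3.15, 2.18 and 4.26 CPM in BF BSHlow non-tumor tissue and 0.883, 0.359, 0.334 and 0.635 CPM in tumors (log2 fold change -2.86, SE 0.64, adjusted p = 0.00124). In BF BSHhigh it had 27.3, 18.5, 9.39 and 11.7 CPM and, in tumors a, b and c, 5.58, 1.65 and 0.572 CPM (-2.70, SE 0.65, adjusted p = 0.00285). Without tumor a that value was -3.90. *Ffar3* had 1 to 4 counts, or none, in each tumor and between 3 and 18 counts in non-tumor tissue. Its log2 fold change was -3.44 (SE 0.82, adjusted p = 0.00208) in BF BSHlow and -2.39 (SE 0.90, adjusted p = 0.0346) in BF BSHhigh, and without the 4th BF BSHlow tumor, which holds 4 of the 5 counts of that group, the first was -4.99. The call in BF BSHhigh was lost without tumor a (adjusted p = 0.0974), without tumor b (0.113), without the first non-tumor library (0.0666), with library size alone (0.0559) and without the filter (0.0567).

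**Figure D2:**
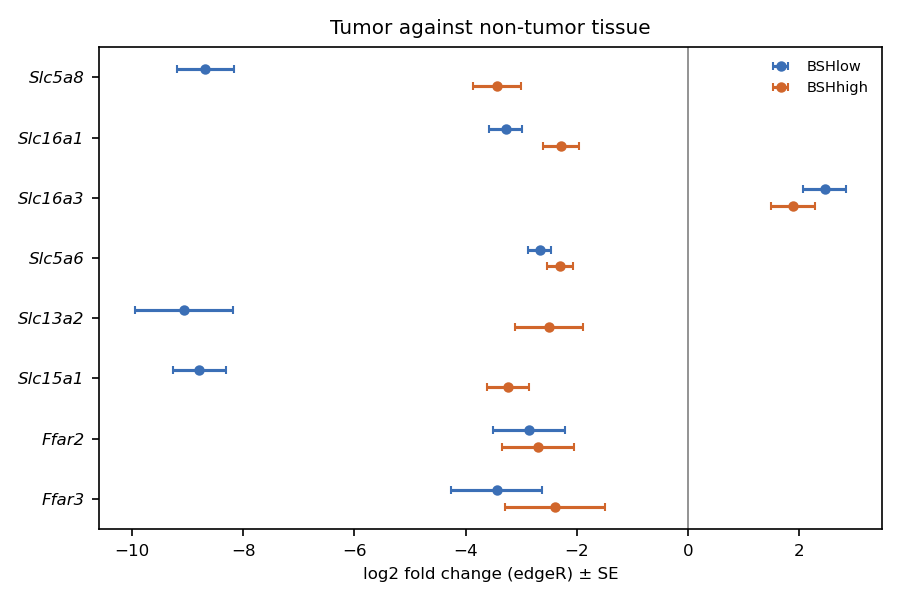
Log2 fold change of each gene in tumors against non-tumor tissue from edgeR (x axis; point, estimate; bar, SE) for BF BSHlow (4 against 4 libraries, blue) and BF BSHhigh (3 against 4, orange). *Slc16a3* stood above 0 in both strains, and *Slc5a8*, *Slc13a2* and *Slc15a1* were between -8.68 and -9.07 in BF BSHlow and between -2.50 and -3.44 in BF BSHhigh.

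The promoters of the 3 members with the largest falls in BF BSHlow tumors and of the 1 that rose are shown, because members moved together there. Each is 300 bases, from 250 before the start of the transcript to 50 after it, from RefSeq on GRCm38.p6, and capitals mark the letters ACGTG, the core of the hypoxia response element.
*Slc5a8* promoter, chr10:88885742-88886041, plus strand: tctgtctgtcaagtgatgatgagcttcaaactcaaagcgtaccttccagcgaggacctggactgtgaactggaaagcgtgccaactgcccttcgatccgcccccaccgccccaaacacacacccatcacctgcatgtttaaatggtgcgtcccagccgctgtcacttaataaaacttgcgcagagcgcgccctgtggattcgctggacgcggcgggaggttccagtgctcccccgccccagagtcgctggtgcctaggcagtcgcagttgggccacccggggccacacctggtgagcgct
*Slc13a2* promoter, chr11:78422185-78422484, minus strand: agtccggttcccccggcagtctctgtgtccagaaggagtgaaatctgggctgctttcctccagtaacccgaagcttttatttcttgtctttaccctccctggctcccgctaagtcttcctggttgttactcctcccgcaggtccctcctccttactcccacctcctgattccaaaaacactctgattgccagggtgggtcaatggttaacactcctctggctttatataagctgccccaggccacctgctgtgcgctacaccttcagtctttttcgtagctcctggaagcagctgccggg
*Slc15a1* promoter, chr14:121505205-121505504, minus strand: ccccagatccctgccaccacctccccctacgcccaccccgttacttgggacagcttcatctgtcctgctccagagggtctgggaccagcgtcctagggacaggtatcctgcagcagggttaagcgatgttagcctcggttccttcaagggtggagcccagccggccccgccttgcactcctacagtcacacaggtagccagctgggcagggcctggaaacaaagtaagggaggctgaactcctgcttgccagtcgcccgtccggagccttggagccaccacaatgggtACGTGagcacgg
*Slc16a3* promoter, chr11:120948817-120949116, plus strand: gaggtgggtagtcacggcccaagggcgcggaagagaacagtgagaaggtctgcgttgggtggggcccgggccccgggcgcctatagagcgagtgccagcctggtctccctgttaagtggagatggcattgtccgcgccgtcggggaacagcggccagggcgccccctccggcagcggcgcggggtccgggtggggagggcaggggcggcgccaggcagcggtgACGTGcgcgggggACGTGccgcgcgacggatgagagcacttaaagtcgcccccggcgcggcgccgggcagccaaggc
All 8 genes matched a promoter by symbol, 12 promoters in all. On both strands, ACGTG stood in 4 of these 12 (*Slc16a3*, *Slc16a1*, *Slc15a1* and 1 of the 4 starts of *Ffar2*) and in 19.6% of 32851 mouse promoters of the same length. In *Slc16a3* it occurred 2 times, at bases 224 to 228 and 237 to 241 of the sequence above. TTTATNG, a site of the Cdx family, was in 10.9% of all promoters and CAAAGTCCA, a site of HNF4, in 0.475%, and neither was in any of the 12 windows. A match is a string of letters and was not tested for binding.

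Genes next to the members in metabolism were read from 7 lists with 95 genes. Of the 14 genes of butyrate oxidation and ketone bodies, 11 were called lower and 0 higher in BF BSHlow tumors, with a median log2 fold change of -1.63 against 0.04 over all genes. In BF BSHhigh 6 were called lower and 0 higher (median -0.98). *Acsm3*, a medium-chain acyl-CoA synthetase that activates butyrate, went from between 227 and 335 CPM to between 3.32 and 11.4 CPM in BF BSHlow (log2 fold change -5.27, SE 0.38) and from between 198 and 272 CPM to between 9.49 and 24.8 CPM in BF BSHhigh (-3.67, SE 0.39). *Acss2*, the cytosolic acetyl-CoA synthetase, fell by 2.89 (SE 0.14) and by 1.90 (SE 0.15) on the log2 scale.

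Other monocarboxylate carriers moved in both directions. Of 12 tested, 2 were called higher and 4 lower in BF BSHlow tumors, and 4 and 4 in BF BSHhigh. *Slc16a10*, which carries aromatic amino acids, rose in BF BSHlow from at most 6.68 CPM to between 33.3 and 89.3 CPM (log2 fold change 3.28, SE 0.32). *Slc16a5* fell from between 38.4 and 66.8 CPM to at most 1.28 CPM (-6.42, SE 0.53) there, and in BF BSHhigh from between 46.1 and 67.1 CPM to between 2.00 and 10.6 CPM (-3.25, SE 0.47). *Abcg2*, an efflux pump, fell by 4.16 (SE 0.43) and by 2.28 (SE 0.43).

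Of 10 genes of lactate and glucose use, 2 were called higher and 0 lower in each strain. They were *Ldhb*, a lactate dehydrogenase subunit (log2 fold change 1.75, SE 0.37, and 1.66, SE 0.39), and *Pfkfb3*, an activator of glycolysis (1.74, SE 0.21, and 1.48, SE 0.22). The median of that list was -0.22 in BF BSHlow and 0.05 in BF BSHhigh. Of 9 citrate and dicarboxylate genes, 3 were called lower in BF BSHlow, among them citrate synthase *Cs* (-1.35, SE 0.13). In BF BSHhigh 0 of the 9 were called by edgeR, with 4 at an unadjusted p under 0.05 and 1, *Cs*, called by DESeq2.

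Of 15 peptide carriers and peptidases, 3 were called higher and 5 lower in BF BSHlow, and 3 and 3 in BF BSHhigh. *Slc15a3*, a peptide carrier of lysosomes, rose in both (log2 fold change 2.46, SE 0.26, and 2.22, SE 0.26). Of 16 vitamin carriers and biotin genes, 2 were called higher and 5 lower in BF BSHlow and 1 and 5 in BF BSHhigh. *Pcx*, the biotin enzyme pyruvate carboxylase, fell by 2.91 (SE 0.20) and by 1.99 (SE 0.21), while *Slc19a3*, a thiamine carrier, rose by 4.0 (SE 0.74) and by 3.50 (SE 0.75). Of 10 metabolite receptors, 2 were called higher and 7 lower in each strain. *Hcar2*, a receptor for butyrate and ketone bodies, rose (4.04, SE 0.69, and 2.26, SE 0.64), as did *Gpr84*, a receptor for medium-chain fatty acids on leukocytes (3.65, SE 0.74, and 4.77, SE 0.77). *Ffar4*, a receptor for long-chain fatty acids, fell by 1.88 (SE 0.34) and by 1.60 (SE 0.37).

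Markers of several cell types moved with these changes. All 6 markers of surface colonocytes were called lower in both strains. Their summed level was between 1802 and 4079 CPM in non-tumor tissue, between 15 and 36.3 CPM in BF BSHlow tumors and between 118 and 689 CPM in BF BSHhigh tumors. The sum of 6 smooth muscle markers was between 1512 and 8468 CPM in non-tumor tissue and between 117 and 343 CPM in tumors. The sum of 7 epithelial markers was between 9273 and 12552 CPM and between 4510 and 8101 CPM, and that of 6 neutrophil markers between 1.70 and 134 CPM and between 47.3 and 447 CPM. The sum of 5 squamous markers was at most 3.33 CPM in non-tumor tissue and between 23.9 and 162 CPM in tumors. Of these, *Krt5* and *Trp63* were at most 0.205 and 0.179 CPM in tumors. Of 6 enteroendocrine markers, 4 were called lower in each strain, with a median log2 fold change of -5.82 in BF BSHlow and -3.09 in BF BSHhigh. Among them, the hormone gene *Gcg* was between 16.5 and 40.9 CPM in non-tumor tissue, at most 0.0953 CPM in BF BSHlow tumors and between 0.572 and 3.72 CPM in BF BSHhigh tumors. The summed enteroendocrine level was between 322 and 476 CPM in non-tumor tissue and between 14.7 and 464 CPM in tumors. *Pyy* and *Cck*, of the same list, were not called in BF BSHlow (log2 fold change 1.29, SE 0.72, and 2.37, SE 1.08). There *Pyy* was between 63.6 and 94.0 CPM in non-tumor tissue and between 12.2 and 459 CPM in tumors. Of 6 enteric neuron markers, 4 were also called lower in each strain (medians -3.70 and -2.88). The part of these cell types in the fall of the carriers and receptors was not tested.

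Between tumors of the 2 strains the 8 genes were selected on the outcome, and the values describe these 7 libraries. *Slc13a2* was 0.196, 0.103, 0.238 and 0.0488 CPM in BF BSHlow and 37.0, 10.9 and 3.10 CPM in BF BSHhigh, a log2 difference of 6.78 (SE 0.94). *Slc5a8* differed by 5.35 (SE 0.59) and *Slc15a1* by 5.23 (SE 0.60). For these 3 genes every BF BSHhigh tumor was above every BF BSHlow tumor, while the groups overlapped for the other 5. Of 15325 genes, 11.8% had groups that did not overlap and 0.476% (73 genes) were called, a count that lay between 0 and 240 with each tumor left out in turn, and nothing is read from these shares for the members.

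The remaining genes differed less. *Ffar2* had a log2 difference of 2.20 (SE 0.74), which was 0.98 without tumor a, and the level in tumor c, 0.572 CPM, lay among those of BF BSHlow. *Slc16a1* differed by 0.68 (SE 0.36), *Slc5a6* by 0.16 (SE 0.27) and *Slc16a3* by -0.33 (SE 0.38). *Ffar3* did not pass the filter, with 5 counts over the 4 BF BSHlow and 5 over the 3 BF BSHhigh tumors. Leaving out each tumor in turn gave between 5.50 and 7.27 for *Slc13a2*, between 4.75 and 5.77 for *Slc5a8* and between 4.68 and 5.63 for *Slc15a1*.

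The 3 BF BSHhigh tumors were themselves unlike. For *Slc5a8*, *Slc13a2*, *Slc15a1* and *Ffar2*, tumor a was above b and b above c. The summed surface colonocyte markers stood in the same order, at 689, 220 and 118 CPM, against 15 to 36.3 CPM in BF BSHlow tumors. *Krt20*, a keratin of mature surface cells, was at 456, 147 and 80.3 CPM, and *Slc26a3*, the surface chloride exchanger, at 39.1, 15.7 and 3.43 CPM against at most 0.491 CPM in BF BSHlow. Summed epithelial markers did not separate the strains, at 8048, 5759 and 6053 CPM against 4510 to 8101 CPM. Of that list *Cdx2*, too low to weigh in the sum, did not overlap, at 2.43 to 27.6 CPM against 0.256 to 1.95 CPM. The others of the list overlapped. Smooth muscle markers were at 343, 215 and 177 CPM against 117 to 251 CPM. The strains did not overlap in summed squamous markers, at 23.9 to 44.0 CPM in BF BSHhigh against 52.2 to 162 CPM, or in enteric neuron markers, at 21.9 to 67.4 CPM against 8.65 to 14.3 CPM. The enteroendocrine gene *Chga* was at 9.77 to 11.7 CPM against 1.37 to 3.59 CPM. The summed enteroendocrine markers overlapped, at 53.8 to 87.8 CPM against 14.7 to 464 CPM, as did *Pyy* of that list, at 27.2 to 66.9 CPM against 12.2 to 459 CPM. The part of these cell types in the differences of the members was not tested.

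**Figure D3:**
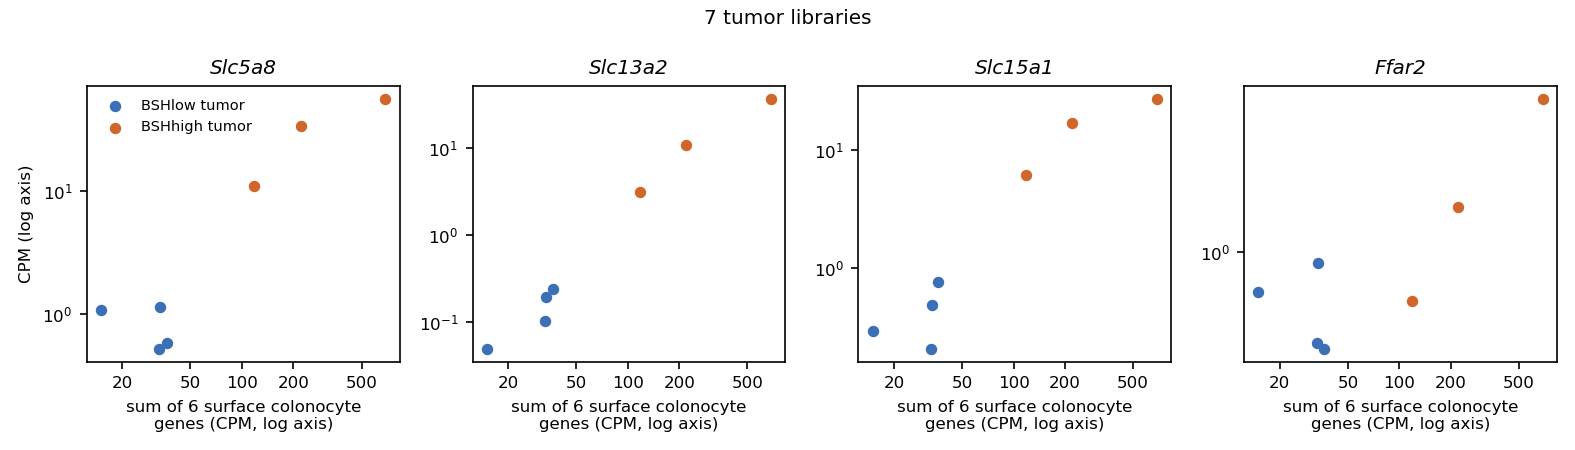
CPM of *Slc5a8*, *Slc13a2*, *Slc15a1* and *Ffar2* (y axis, log) against the summed CPM of 6 surface colonocyte markers (x axis, log) in 4 BF BSHlow (blue) and 3 BF BSHhigh (orange) tumors, a point per library. The BF BSHhigh tumors lie at 118, 220 and 689 CPM of the markers, and each gene was higher where the markers were higher among these 3.

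Of the companion genes 80 were tested between tumors and 0 were called by edgeR, with 22 at an unadjusted p under 0.05 and 7 called by DESeq2. Over all 15325 genes these counts were 1946 and 534. The median log2 difference was 0.35 over the 14 butyrate and ketone genes, 0.18 over 12 monocarboxylate carriers and -0.04 over 14 peptide genes, against -0.03 over all genes.

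In non-tumor tissue the strains were compared to see whether the bacterial enzyme moves the carriers outside the tumor. By edgeR 0 of the 7 members that passed the filter were called, and 0 of 14933 genes (0%) were called in all, with 1377 at an unadjusted p under 0.05 and 53 called by DESeq2. Of the 7 members, 2 had an unadjusted p under 0.05 and 1, *Ffar2*, was called by DESeq2. *Slc5a8* was at 338 ± 79.0 CPM in BF BSHlow and 369 ± 46.0 CPM in BF BSHhigh (SD, n = 4 each), *Slc16a1* at 346 ± 42.7 and 281 ± 47.2 CPM, and *Slc13a2* at 82.0 ± 35.4 and 94.9 ± 29.4 CPM. *Slc15a1* was at 197 ± 18.6 and 157 ± 20.9 CPM (log2 fold change -0.33, SE 0.11, adjusted p = 0.461). *Slc5a6*, at 40.2 ± 4.49 and 35.2 ± 7.67 CPM, and *Slc16a3*, at 31.3 ± 16.3 and 37.4 ± 9.32 CPM, also overlapped between the strains. *Ffar3* was under 1.2 CPM in every library and did not pass the filter.

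*Ffar2* was the member that stood apart. It had 6.59, 3.15, 2.18 and 4.26 CPM in BF BSHlow and 27.3, 18.5, 9.39 and 11.7 CPM in BF BSHhigh, or 32 to 89 counts against 155 to 437. Every BF BSHhigh library was above every BF BSHlow library, as held for 5.38% of the 14933 genes in either direction. The log2 fold change was 2.04 (SE 0.42) and did not pass the correction over all genes in edgeR (adjusted p = 0.280), but was called by DESeq2 (2.04, adjusted p = 0.000425). Over 15 alternatives it was between 1.70 and 2.38, with DESeq2 the 1 that called it. Summed neutrophil markers were between 1.70 and 15.8 CPM in BF BSHlow and at 134, 31.9, 7.94 and 16.2 CPM in BF BSHhigh libraries 1 to 4. The sum of enteroendocrine markers was between 322 and 359 CPM and between 363 and 476 CPM. Without library 1, where neutrophil markers were at 134 CPM, the log2 fold change of *Ffar2* was 1.70 (adjusted p = 0.667). In tumors neutrophil markers were between 47.3 and 447 CPM while *Ffar2* was between 0.334 and 5.58 CPM. The part of either cell type in the difference was not tested.

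Of 80 companion genes tested in non-tumor tissue, 0 were called by edgeR, 10 had an unadjusted p under 0.05 and 1, the peptidase *Enpep*, was called by DESeq2.

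At 2 weeks the same comparison asks for an early effect of the enzyme. None of the 8 members was called by edgeR or DESeq2, and 3 of the 8 had an unadjusted p under 0.05 by edgeR, as did 935 of all 13752 genes. The share called was 0.00727% (1 gene, not a member). *Slc13a2* was at 353, 331, 344 and 316 CPM in BF BSHlow and at 451, 526, 414 and 502 CPM in BF BSHhigh. The groups did not overlap, as for 3.64% of all genes. The log2 fold change of 0.48 (SE 0.10) did not pass in edgeR (adjusted p = 0.512), and in DESeq2 its adjusted p was 0.00165 with a fold change of 0.49, under the threshold of 1.

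*Slc15a1* and *Slc16a3* were high in the same libraries. *Slc15a1* had 12.6, 18.1, 33.6 and 18.9 CPM in BF BSHlow and 99.9, 22.2, 107 and 31.5 CPM in BF BSHhigh (log2 fold change 1.65, SE 0.51, adjusted p = 0.651). *Slc16a3* had 4.32, 5.83, 7.29 and 5.69 CPM and 17.4, 6.48, 16.7 and 4.49 CPM (0.96, SE 0.41, adjusted p = 0.725). In both genes BF BSHhigh libraries 1 and 3 were high and libraries 2 and 4 were within the range of BF BSHlow. *Hoxb13*, a homeobox gene of the distal colon, was at 60.5 and 57.4 CPM in libraries 1 and 3. It was at 5.15 and 2.08 CPM in libraries 2 and 4 and at most 9.21 CPM in BF BSHlow. *Hoxa13*, another distal gene, was at 26.9 and 36.8 CPM in libraries 1 and 3 and at 5.30 and 4.57 CPM in libraries 2 and 4. In BF BSHlow *Hoxa13* was between 4.32 and 20.1 CPM, highest in library 3. The distal gene *Hoxd13* was too low at 2 weeks to order the libraries. It was at 0 CPM in libraries 1 and 3, at 0.515 and 0.16 CPM in libraries 2 and 4, and at most 0.141 CPM in BF BSHlow. Without libraries 1 and 3, the log2 fold change was 0.36 for *Slc15a1* and -0.08 for *Slc16a3*. *Slc13a2* then had 0.60 (SE 0.12, adjusted p = 0.465).

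The other members overlapped between the strains at 2 weeks. *Slc5a8* was at 239 ± 29.7 and 267 ± 40.4 CPM, *Slc16a1* at 316 ± 103 and 265 ± 43.4 CPM, and *Slc5a6* at 19.1 ± 4.17 and 22.7 ± 6.47 CPM (SD, n = 4 each). *Ffar2* was at 17.4 ± 3.46 and 12.8 ± 5.22 CPM (log2 fold change -0.45, SE 0.27, adjusted p = 0.813) and *Ffar3* at 2.84 ± 0.723 and 2.55 ± 1.42 CPM. Of 79 companion genes tested, 0 were called by edgeR or DESeq2, with 7 at an unadjusted p under 0.05.

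Non-tumor tissue after 12 weeks was then set against normal colon after 2 weeks of the same strain. In BF BSHlow 3 of the 8 members were called higher and 3 lower, where 25.0% of 15532 genes were called (17.0% higher and 8.06% lower). In BF BSHhigh 2 were called higher and 2 lower, where 24.4% were called (16.8% higher and 7.56% lower). In both strains *Ffar3* is among those called lower. It did not pass the filter in non-tumor tissue alone and entered this fit through the 2-week libraries, where it is high. Without *Ffar3*, the members called lower were *Slc13a2* and *Ffar2* in BF BSHlow and *Slc13a2* in BF BSHhigh. The tissues differed in more than time. The distal gene *Hoxb13* was between 1.5 and 60.5 CPM at 2 weeks and between 376 and 562 CPM at 12 weeks, and *Hoxb6*, a homeobox gene expressed further forward, was between 20.3 and 54.0 CPM and at most 0.630 CPM. Smooth muscle markers summed to between 7.08 and 206 CPM at 2 weeks and to between 1512 and 8468 CPM at 12 weeks. The 6 small intestinal markers summed to between 291 and 1296 CPM and between 6.97 and 30.2 CPM. Of these 6 at 2 weeks, *Slc10a2* was between 227 and 970 CPM and *Sis* between 14.7 and 229 CPM. *Lct* and *Defa17* were at most 0.663 and 0.379 CPM there. Time of colonization, age and the piece of tissue taken cannot be told apart here.

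*Slc15a1*, the peptide carrier, was higher at 12 weeks. In BF BSHlow it went from 12.6, 18.1, 33.6 and 18.9 CPM to 208, 171, 195 and 212 CPM (log2 fold change 3.24, SE 0.43, adjusted p = 2.86e-05). In BF BSHhigh it went from 99.9, 22.2, 107 and 31.5 CPM to 133, 181, 167 and 148 CPM (1.28, SE 0.40, adjusted p = 0.0150). Neither pair of groups overlapped. Without the 2-week libraries 1 and 3 of BF BSHhigh, which had more *Hoxb13*, the second value was 2.56 (SE 0.31, adjusted p = 3.86e-05), and without library 2 alone it was 0.99 and no longer past the fold threshold.

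*Slc13a2*, the citrate carrier, was lower at 12 weeks. It fell from between 316 and 353 CPM to between 37.7 and 121 CPM in BF BSHlow (log2 fold change -2.04, SE 0.27, adjusted p = 2.92e-05) and from between 414 and 526 CPM to between 64.5 and 133 CPM in BF BSHhigh (-2.31, SE 0.28, adjusted p = 1.10e-05). The groups did not overlap in either strain. In the 2-week libraries with more *Hoxb13*, *Slc13a2* was at 451 and 414 CPM, against 526 and 502 CPM in the other libraries of that group.

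*Slc16a3* rose from 5.79 ± 1.21 to 31.3 ± 16.3 CPM (SD, n = 4 each) in BF BSHlow (log2 fold change 2.43, SE 0.42, adjusted p = 0.000228) and from 11.3 ± 6.74 to 37.4 ± 9.32 CPM in BF BSHhigh (1.74, SE 0.40, adjusted p = 0.00212). Without the 2-week libraries 1 and 3 the second value was 2.77 (SE 0.42). *Slc5a6* rose in BF BSHlow from 19.1 ± 4.17 to 40.2 ± 4.49 CPM (1.06, SE 0.20, adjusted p = 0.000555), a value near the fold threshold that was 0.98 without BF BSHlow non-tumor library 4, 0.99 without 2-week library 2 and 0.96 without 2-week library 3. For BF BSHhigh the value was 0.64 (SE 0.20, adjusted p = 0.0154), which is under the fold threshold.

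The butyrate carriers differed little in time. *Slc5a8* had a log2 fold change of 0.49 (SE 0.16, adjusted p = 0.0212) in BF BSHlow and 0.48 (SE 0.16, adjusted p = 0.0237) in BF BSHhigh, both under the fold threshold. *Slc16a1* had 0.12 (SE 0.19, adjusted p = 0.634) and 0.09 (SE 0.19, adjusted p = 0.712), and its groups overlapped in both strains.

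*Ffar3* fell from 2.73, 3.75, 1.99 and 2.88 CPM to 1.04, 0.515, 0.204 and 1.16 CPM in BF BSHlow (log2 fold change -1.96, SE 0.49, adjusted p = 0.00397) and from 4.63, 1.47, 1.93 and 2.16 CPM to 0.562, 0.685, 0.303 and 0.224 CPM in BF BSHhigh (-2.47, SE 0.51, adjusted p = 0.00105). All 12-week libraries were below all 2-week libraries. As *Ffar3* entered the fit through the 2-week libraries, where it is high, nothing further is read from this separation. *Ffar2* fell in BF BSHlow from 13.1, 20.8, 19.5 and 16 CPM to 6.59, 3.15, 2.18 and 4.26 CPM (-2.11, SE 0.39, adjusted p = 0.000378). In BF BSHhigh it was at 14, 8.91, 19.7 and 8.57 CPM and then at 27.3, 18.5, 9.39 and 11.7 CPM, with overlap (0.39, SE 0.36, adjusted p = 0.386).

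**Figure D4:**
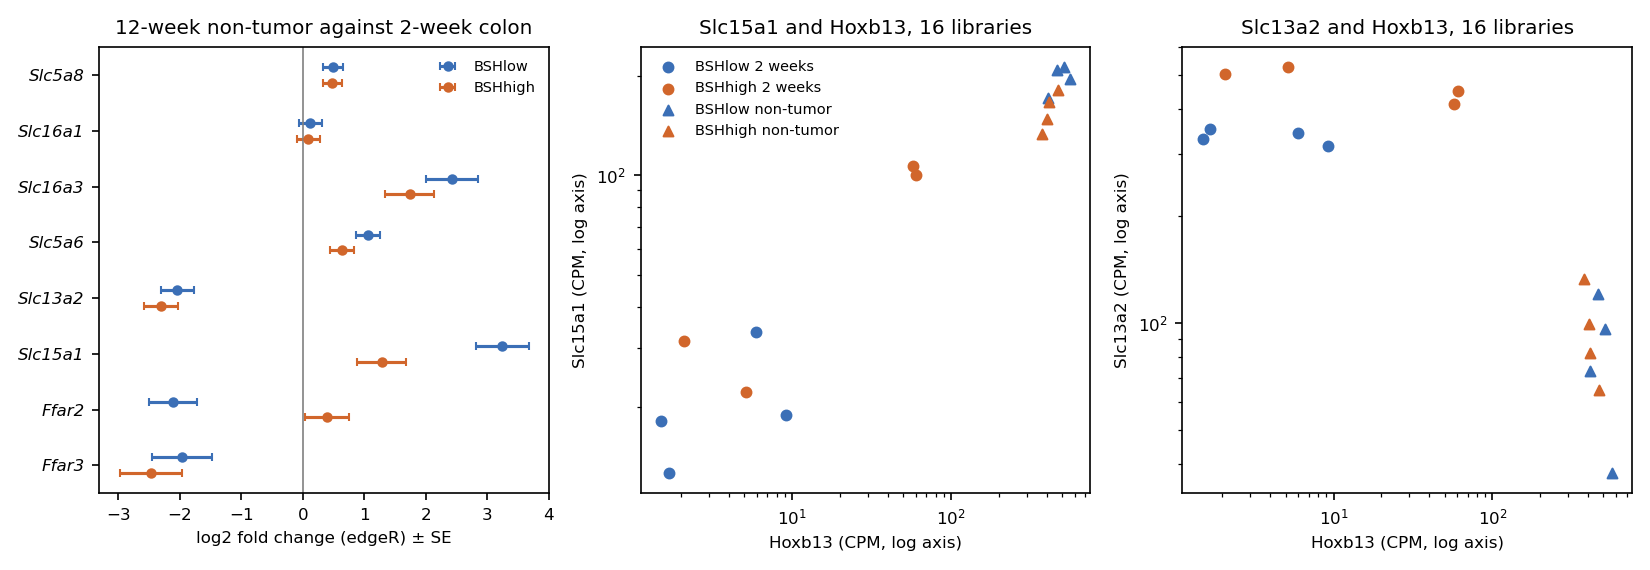
Left, log2 fold change of each gene in 12-week non-tumor tissue against 2-week colon from edgeR (point, estimate; bar, SE; 4 against 4 libraries) for BF BSHlow (blue) and BF BSHhigh (orange). Middle and right, CPM of *Slc15a1* and *Slc13a2* against CPM of *Hoxb13* (log axes) in 16 libraries (circles, 2 weeks; triangles, 12 weeks). The BF BSHhigh 2-week libraries at 60.5 and 57.4 CPM of *Hoxb13* had *Slc15a1* at 99.9 and 107 CPM, above the other 2-week libraries.

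The difference of the strains between the times was tested as an interaction, after the values were seen. For *Ffar2* it was 2.50 (SE 0.53, unadjusted p = 0.000229 from edgeR), with an adjusted p of 0.300 in edgeR and 0.00433 in DESeq2, and *Ffar2* was higher in BF BSHhigh in 4 of 4 libraries at 12 weeks. Without the BF BSHhigh 2-week libraries 1 and 3 it was 3.06 (adjusted p = 0.0881 in edgeR). For *Slc15a1* it was -1.96 (SE 0.57, adjusted p = 0.427 in edgeR) and -0.67 without those libraries. Of 15532 genes 0% were called by edgeR, with 1135 at an unadjusted p under 0.05 and 22 called by DESeq2.

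The companion lists moved with time as well. Of 14 butyrate and ketone genes, 1 was called higher and 3 lower in BF BSHlow, and 1 and 5 in BF BSHhigh. *Acads*, which oxidises butyryl-CoA, fell by 1.39 (SE 0.13) and by 1.54 (SE 0.13), while *Acsm3* rose by 1.38 (SE 0.21) and by 1.15 (SE 0.21). Of 12 monocarboxylate carriers 2 were called higher and 3 lower in each strain, with *Slc16a12* up (3.85, SE 0.56, and 3.42, SE 0.54) and *Slc16a9* down (-2.65, SE 0.38, and -2.24, SE 0.38).

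Of 10 lactate and glucose genes, 3 were called higher and 0 lower in each strain. *Egln3*, a prolyl hydroxylase that is itself induced by hypoxia, rose from between 23.8 and 48.9 CPM to between 147 and 381 CPM in BF BSHlow (log2 fold change 2.69, SE 0.29) and from between 50.6 and 68.6 CPM to between 150 and 268 CPM in BF BSHhigh (1.82, SE 0.28). Of 9 citrate and dicarboxylate genes, 2 were called higher and 2 lower in each. *Slc13a1*, the sulfate carrier of the same family as *Slc13a2*, fell from between 35.1 and 175 CPM to at most 0.572 CPM in BF BSHlow (-8.30, SE 0.66) and from between 92.1 and 291 CPM to at most 1.56 CPM in BF BSHhigh (-7.86, SE 0.61). *Acly*, which splits citrate in the cytosol, rose by 1.09 (SE 0.15) and by 1.12 (SE 0.15).

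Of 15 peptide genes, 3 were called higher and 4 lower in BF BSHlow and 2 and 4 in BF BSHhigh, with the peptidases *Ace* up (2.58, SE 0.21, and 2.25, SE 0.21) and *Enpep* down (-2.77, SE 0.50, and -5.11, SE 0.57). Of 15 vitamin and biotin genes, 2 were called higher and 1 lower in each. *Slc46a1*, the proton-coupled folate carrier, rose from at most 6.50 CPM to between 47.9 and 68.4 CPM in BF BSHlow (3.32, SE 0.30) and from at most 17.2 CPM to between 37.8 and 58.4 CPM in BF BSHhigh (2.41, SE 0.29). Of 9 metabolite receptors, 0 were called higher and 1 lower in BF BSHlow, and 3 and 2 in BF BSHhigh.

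The genes whose levels ran most alike with each member over the 23 libraries were ranked by Pearson's r of log2 CPM among 14399 genes with a mean of at least 1 CPM. The libraries share tissue, time and strain, so that r mainly follows the differences between the 6 groups, and no test was made. *Slc13a2* ran most like *Prss30* (r = 0.996), *Btnl6* (0.994) and *Ptprh* (0.993). *Slc5a8* ran most like the mucin *Muc3* (0.991), *Lypd8* (0.986) and the sulfotransferase *Sult1b1* (0.986), and *Slc15a1* like *Thbs4* (0.987), *Nrap* (0.981) and CT025731.4 (0.979). *Slc16a1* was nearest to *Map2k1* (0.985) and *Anxa11* (0.981). *Slc16a3* was nearest to *Arhgef40* (0.971), the prostaglandin synthase *Ptgs2* (0.966) and *Lama5* (0.964). *Slc5a6* was nearest to *Gpr89* (0.960), *Stim1* (0.958) and Gm47708 (0.955). *Ffar2* ran most like *Galnt12* (0.955), *Sppl2a* (0.953) and *Ano7* (0.952), and *Ffar3* like *Rgs13* (0.964), *Trpm5* (0.963), the cation channel of tuft cells, and *Sh2d7* (0.962). Among the members, r was 0.939 between *Slc5a8* and *Slc13a2*, 0.927 between *Slc5a8* and *Slc15a1* and -0.735 between *Slc5a8* and *Slc16a3*.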

How the data were processed

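RNA of colon tissue was sequenced from both ends of each fragment. Per the labels and the submitters' processing notes, the authors used Cutadapt, STAR on the mm10 build, RSEM and Picard (versions not given in the sources used here), and deposited 1 table of expected counts, with 4.24% of values not whole. All identifiers and symbols matched GENCODE M21. A row with a text cell and a row without a name were left out. The 3 tumor columns of BF BSHhigh were identified by the headers of the study's supplementary table.

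Expected counts were rounded and tested with edgeR 4.0.16 (R 4.3.3): filterByExpr, TMM, quasi-likelihood test and Benjamini-Hochberg adjustment over all genes of the fit, with SE as the log2 fold change over the square root of F. Tumors and non-tumor tissue of both strains shared a fit of 15 libraries, the 12- and 2-week tissues a fit of 16, and the strains were otherwise compared alone. DESeq2 1.42.0 and limma-voom (limma 3.58.1) were alternatives, as were library size alone, no filter, each library left out and a replicate block. The members and lists were chosen with earlier results of these data known. All members were named, with up to 2 genes called higher and 2 called lower per list, by fold, with a mean of at least 1 CPM. A few genes that this rule would name are not reported here. *Krt20*, *Slc26a3*, *Apc*, *Atraid*, *Hoxb13*, *Hoxb6*, *Gcg* and *Chga*, and the genes named beside a count of 1 call, were picked after their values were seen. So were *Cdx2*, *Hoxa13*, *Hoxd13*, *Pyy*, *Cck*, *Krt5*, *Trp63*, *Slc10a2*, *Sis*, *Lct* and *Defa17*. The interaction and the fits without 2-week libraries 1 and 3 of BF BSHhigh were also chosen after the values were seen. Replicates differed by more than counting error (chi-square over degrees of freedom 16.6 to 126.2 in 33 pairs).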

Additional observations from a re-analysis of the deposited data

Results flagged for a closer look

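*Slc16a3* in BF BSHlow non-tumor tissue had 55.5 CPM in library 4, against 20.7, 26.0 and 22.9 CPM in the others, a gap of 0.846 of the whole range of the group, so that this library stood far from the rest. It was the 1 such value among 40 groups of 4 libraries examined, of which chance would give about 1 in 20. In library 4 *Hoxd13* was at 8.9 CPM, against 120 to 153 CPM in the others, while *Hoxb13*, at 513 CPM, was within their range. Summed neutrophil markers were at 15.8 CPM against 1.70 to 4.58 CPM. BF BSHhigh library 1 had *Hoxd13* at 7.18 CPM, against 131 to 150 CPM, and the highest *Slc16a3* of its group, 49.2 CPM. The part of the tissue piece in these values was not tested. No difference between groups was flagged in this section. Those that passed the correction in edgeR are given above.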

How the results depend on the processing

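Of 707 tested values of single members under alternatives, 697 stayed on the same side of the threshold in the same direction, 9 lost the call, 1 gained it and 0 reversed. The 9 were *Ffar3* in tumors against non-tumor tissue of BF BSHhigh (5 alternatives), *Slc5a6* in BF BSHlow over time (3) and *Slc15a1* in BF BSHhigh over time (1), and the cause was not tested. With DESeq2, 1 member, *Ffar2*, was called between the strains in non-tumor tissue, where edgeR called 0. Between tumors, the contrast known when the genes were chosen, the median log2 difference over the 7 members was 2.20. It became 0.98 without tumor a. Both are the values of *Ffar2*, the middle member, whose groups overlapped. The other members lay away from it. *Slc13a2*, *Slc5a8* and *Slc15a1* were at 6.78, 5.35 and 5.23, and *Slc16a1*, *Slc5a6* and *Slc16a3* between -0.33 and 0.68. Leaving out each library in turn gave 7 to 8 members called in tumors against non-tumor tissue of each strain. Between the strains it gave 0 in non-tumor tissue and at 2 weeks. Over time it gave 5 to 6 in BF BSHlow and 3 to 4 in BF BSHhigh. The median between tumors was then between 0.98 and 2.67, which is the range of *Ffar2*.

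The number of genes called between tumors was 73 by edgeR, 534 by DESeq2 and 41 by limma-voom, in non-tumor tissue 0, 53 and 0, and at 2 weeks 1, 28 and 1. The edgeR count between tumors was 0 without BF BSHlow tumor 1, 3 or 4, 3 without tumor 2, 6 without BF BSHhigh tumor a, 1 without b and 240 without c. At 2 weeks it was 37 without BF BSHlow library 4 and 0 or 1 without any other library. With library size alone, the calls over time in BF BSHhigh were 79.5% higher, against 69.0% with TMM.

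With the number of the library as a replicate block, 7 of 7 members tested were called in BF BSHlow tumors against non-tumor tissue, where *Ffar3* did not pass the filter, 0 between the strains in non-tumor tissue, 0 at 2 weeks, 6 over time in BF BSHlow and 4 over time in BF BSHhigh. Libraries with the same number did not deviate together (correlations from -0.173 to 0.26), so that the numbers were not taken as pairs. Low counts limit *Ffar3* throughout, and *Slc13a2*, *Slc15a1* and *Slc5a8* in BF BSHlow tumors.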
